A study of Mus musculus with 6 samples.

Results

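The apolipoprotein L genes form a family of lipid-binding proteins that lie close together on mouse chromosome 15. The 10 members described here are Apol6, Apol7b, Apol7c, Apol7e, Apol8, Apol9a, Apol9b, Apol10a, Apol10b and Apol11b. The array held 20018 genes with a symbol, and 8 of the 10 members were among them. Every probe whose RefSeq transcript belongs to a member was taken. The members were chosen by their known difference between old and young samples in these same data, so their own differences are a description. Where the fit over all probes passed a member, that is stated as a count and supports nothing.

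The RNA came from sorted bone marrow cells of C57BL/6 mice, with 3 samples from old mice aged 24 months and 3 from young mice aged 3 months. The labels call the cells mesenchymal stem cells of the bone marrow. They name no treatment, no sort marker and no sex, and they do not say whether the samples of an age came from separate animals. The p-values below therefore measure no more than the spread between these samples, and that spread may be technical in part.

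Apolipoprotein L proteins carry amphipathic helices that insert into membranes, and most of them act inside the cell and not in plasma lipoproteins. The best known member, human APOL1, circulates on high-density lipoprotein and kills African trypanosomes; mice lack it and carry instead a cluster of their own genes. Interferons raise the expression of several human APOL genes and of mouse Apol9a and Apol9b. In dendritic cells, mouse Apol7c acts on the membrane of phagosomes.

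The promoters of the genes on which the results turn are shown because interferon is the best known inducer of the family. Each window runs from 250 bases before to 50 after the RefSeq start in GRCm38.p6, written 5′ to 3′ in the direction of the gene. Apol10a lies at chr15:77476797-77477096 on the plus strand, Apol10b at chr15:77596076-77596375 on the minus strand, Apol11b at chr15:77643237-77643536 on the minus strand and the second start of Apol9a at chr15:77411031-77411330 on the minus strand. Capitals mark matches on either strand to GAAANNGAA, the core of the interferon-stimulated response element, or to TTCNNNGAA, the gamma-activated site.
Apol10a: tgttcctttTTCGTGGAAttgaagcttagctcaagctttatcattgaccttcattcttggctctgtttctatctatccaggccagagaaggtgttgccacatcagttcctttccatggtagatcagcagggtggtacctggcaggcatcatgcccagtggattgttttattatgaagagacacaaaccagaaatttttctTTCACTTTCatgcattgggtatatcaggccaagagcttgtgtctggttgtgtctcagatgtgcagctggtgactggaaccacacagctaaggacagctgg
Apol10b: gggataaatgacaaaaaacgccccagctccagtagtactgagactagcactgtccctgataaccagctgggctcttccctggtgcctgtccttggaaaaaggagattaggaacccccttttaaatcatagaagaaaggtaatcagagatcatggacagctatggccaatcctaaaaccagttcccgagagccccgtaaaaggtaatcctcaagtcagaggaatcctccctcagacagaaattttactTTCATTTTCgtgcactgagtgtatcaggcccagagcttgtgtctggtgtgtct
Apol11b: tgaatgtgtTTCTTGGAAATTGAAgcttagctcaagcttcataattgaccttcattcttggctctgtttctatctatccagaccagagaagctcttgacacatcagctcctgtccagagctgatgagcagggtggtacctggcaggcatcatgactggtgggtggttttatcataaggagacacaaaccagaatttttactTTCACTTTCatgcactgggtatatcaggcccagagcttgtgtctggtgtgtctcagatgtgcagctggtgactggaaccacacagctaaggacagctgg
Apol9a: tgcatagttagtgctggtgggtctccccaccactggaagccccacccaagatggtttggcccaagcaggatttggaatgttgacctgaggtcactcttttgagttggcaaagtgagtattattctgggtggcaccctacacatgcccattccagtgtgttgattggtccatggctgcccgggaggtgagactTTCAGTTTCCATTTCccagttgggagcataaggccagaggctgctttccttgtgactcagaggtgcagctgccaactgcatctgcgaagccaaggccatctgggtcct

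A window was listed for 9 of the 10 members, with 2 starts each for Apol9a and Apol9b, which made 11 windows. The response element core was present in 9 of the 11 windows, against 8.56% of the 32851 mouse promoters of the same length. The 2 windows of Apol9a overlap and hold the same matches, as do those of Apol9b, and several other windows are near copies. The windows are therefore not independent, and their count was not tested against that share. It began 50 bases before the start of Apol10a, 3 before that of Apol10b and 49 before that of Apol11b. In the Apol9a window shown, a pair of overlapping matches began 58 and 52 bases before the start. Apol9b, Apol7c and Apol7e also held overlapping pairs, while the windows of Apol7b and Apol8 held no such letters. The gamma-activated site was found in 2 windows, those of Apol10a and Apol11b, each 241 bases before the start, against 8.3% of all promoters. In Apol11b it overlapped a second response element core 235 bases before the start. These matches describe letters and show neither binding nor use.

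The windows also showed how close the copies are. Apol10a and Apol11b were identical at 268 of 299 aligned bases (89.6%). Apol10a and Apol10b were identical at 166 of 231 aligned bases (71.9%). That was 55.3% of all 300 bases, the same share as for Apol8 and Apol11b (55.3%), so these windows were not close copies. A window of Apol9a and one of Apol9b were identical at all 281 aligned bases. Apol7b and Apol7e were identical at 293 of 295 aligned bases (99.3%). The probes' own sequences were not used here, so a probe named for one of these genes may also have bound transcripts of a close copy. The assignment within the pairs, Apol10a and Apol10b included, is uncertain.

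Of the 10 members, 8 had a probe and 10 probes were found, each printed as a single spot. Apol7e, a close relative of Apol7b, and Apol8 matched no probe. The authors' processed signal is background-subtracted within each array, and the scanner software marks each spot as well above background or not. By that mark 6 probes, of 6 genes, were detected on all 6 arrays. The other 4 probes were detected on none: those of Apol6 (A_66_P104314), whose human counterpart promotes apoptosis, and of Apol7c (A_55_P2148062), and the second probes of Apol9a (A_55_P2107775) and Apol10b (A_55_P2006494). Their signals lay between 3.01 and 12.6, against 13.2 to 17.4 for the dimmest signal that was well above background on each array. No level is given for these probes. Apol6 and Apol7c were therefore not measurable in either age, and Apol9a and Apol10b each rest on 1 of 2 probes.

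**Figure D1:**
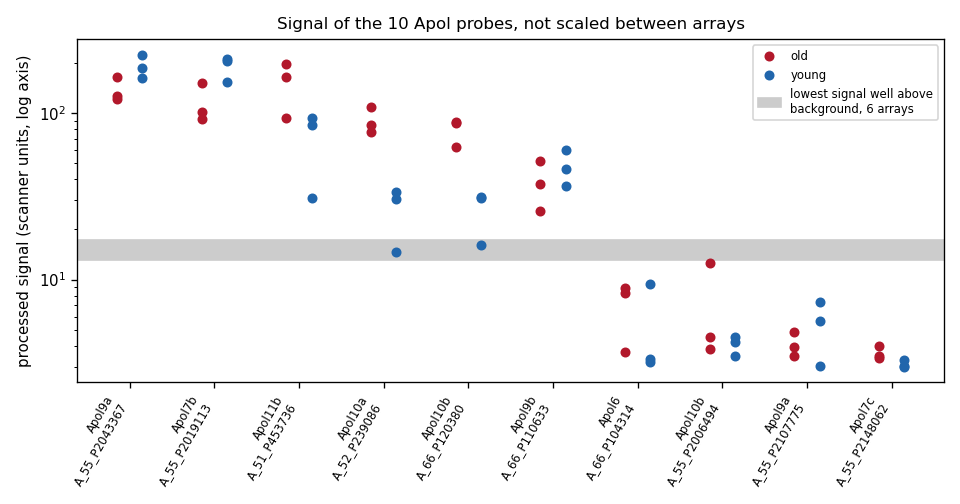
Processed signal (scanner units, log axis) of the 10 Apol probes on 3 old and 3 young arrays, 1 point per array and not scaled between arrays, with a grey band over the lowest signals well above background (13.2 to 17.4). Of the 10 probes, 6 lie at or above the band, with the lowest young points of Apol10a (14.7) and Apol10b (16.1) inside it, and 4 lie below it on every array.

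Defining markers of the labelled cell type were absent in part: 5 of 10 mesenchymal stroma markers, Pdgfra and Pdgfrb among them, were well above background on no array, while all 10 leukocyte markers were so on all 6. Of the 5 stroma markers tested 1 was higher and 3 were lower in old samples, 1 of the 3 being above background on no old array. The 75th percentile of processed signal was 205.9 to 285.3 on the old arrays and 277.4 to 348.6 on the young ones, and the share of probes well above background was 50.9% to 53.4% on the old arrays, against 55.2% to 60% on the young ones. All old arrays shared one slide row and all young arrays another, and the effects of row and age cannot be told apart. The number of arrays limits the precision of every value given here.

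Among the measured members, Apol10a and Apol10b stood 4.87-fold and 4.22-fold higher in old than in young samples, and Apol11b stood 3.12-fold higher. The other probe of the same Apol10b transcript was well above background on no array, old or young. Apol9a, Apol9b and Apol7b differed by less. These 6 probes thus fell into a group of 3 that were higher on every old array than on any young one, and a group of 3 whose ages overlapped. Of all tested probes, 22.5% were also higher on every old array than on any young one.

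Apol10a (NM_177744, probe A_52_P239086) had signals of 108, 84.2 and 77.3 on the old arrays, against 33.5, 14.7 and 30.5 on the young ones. Relative to each array's 75th percentile of signal, which is the scale used from here on, it stood at 37.8%, 37.6% and 37.5% in old samples, against 10%, 4.2% and 11.0% in young samples. The old samples were nearly equal, and every one was above every young sample. On the log2 scale Apol10a averaged -1.41 ± 0.01 in old and -3.69 ± 0.77 in young samples (SD, n = 3 each), a difference of 2.28 ± 0.36 (SE). The smallest old value lay 1.77 above the largest young value. The spread sat in the young samples, of which replicate 2 was the lowest.

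Apol10b (NM_177820, probe A_66_P120380) had signals of 88.0, 87.2 and 62.4 in old samples, against 31.3, 16.1 and 31.0 in young samples. It stood at 30.9%, 38.9% and 30.3% of the 75th percentile in old samples, against 9.35%, 4.63% and 11.2% in young samples. All old samples were again above all young ones, and young replicate 2 was again the lowest. The log2 level averaged -1.59 ± 0.20 in old and -3.67 ± 0.67 in young samples (SD, n = 3 each), a difference of 2.08 ± 0.33 (SE), with a gap of 1.44 between the nearest old and young values.

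Apol11b (NM_001143686, probe A_51_P453736) had signals of 165, 197 and 93.2 in old samples, against 85.3, 31.0 and 92.7 in young samples. Old replicate 3 and young replicate 3 were almost equal in unscaled signal. Relative to the 75th percentile Apol11b stood at 58.0%, 87.9% and 45.2% in old samples, against 25.5%, 8.88% and 33.4% in young samples. The groups did not overlap on this scale, but the nearest values lay only 0.44 apart on the log2 scale. The log2 level averaged -0.71 ± 0.48 in old and -2.35 ± 1.01 in young samples (SD, n = 3 each), a difference of 1.64 ± 0.52 (SE).

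Apol9a (NM_173786, probe A_55_P2043367), the interferon-induced member that binds phosphatidylethanolamine, stood at 57.5%, 56.8% and 59.1% of the 75th percentile in old samples, against 66.7%, 53.4% and 58.2% in young samples. The old values lay inside the range of the young ones. Its unscaled signals were 164, 127 and 122 in old samples, against 223, 186 and 162 in young samples, with a lower 75th percentile on 2 of the 3 old arrays than on any young one. The log2 difference was -0.03 ± 0.11 (SE), and the fold was 0.976.

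Apol9b (NM_001168660, probe A_66_P110633), the near copy of Apol9a, stood at 18.1%, 16.6% and 12.5% in old samples, against 18.0%, 10.4% and 16.6% in young samples. Here too the ages overlapped, with a log2 difference of 0.09 ± 0.25 (SE). Young replicate 2 was the lowest sample, as it was for Apol10a, Apol10b and Apol11b.

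Apol7b (NM_001024848, probe A_55_P2019113) stood at 52.9%, 45.0% and 44.9% in old samples, against 45.8%, 60.5% and 74.1% in young samples. Its log2 difference was -0.31 ± 0.19 (SE), the lowest of the 6, and the ages overlapped. In unscaled signal the old values, 151, 101 and 92.5, all lay below the young values, 153, 211 and 206. That order did not hold once each array was set to its own 75th percentile.

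**Figure D2:**
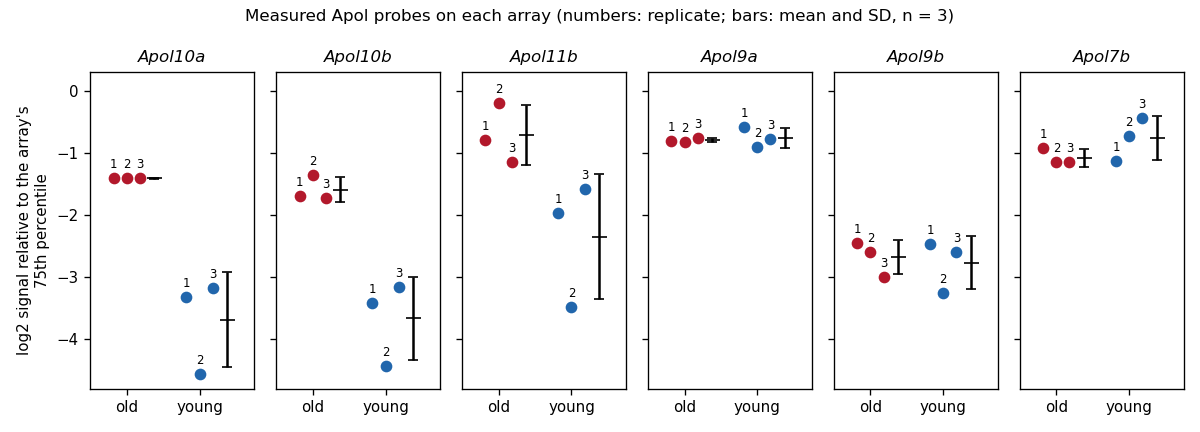
Log2 signal, scaled to each array's 75th percentile, for the 6 measured Apol probes, with old samples left of young samples, replicate numbers beside the points and bars for mean and SD (n = 3 each). Apol10a, Apol10b and Apol11b are higher in every old sample than in any young sample, by at least 1.77, 1.44 and 0.44, while the ages overlap in Apol9a, Apol9b and Apol7b. Of all tested probes, 22.5% are higher in every old sample than in any young one.

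In the limma fit over all 31286 probes that at least 3 of the 6 arrays measured well above background, 2 of the 6 Apol probes passed an adjusted p of 0.05, both higher in old samples (Apol10a and Apol10b). Apol11b did not pass (limma adjusted p = 0.112). Over all tested probes 4.03% passed as higher in old and 3.77% as lower. The 2.28 of Apol10a ranked 11th of the 31286 differences counted from the highest, that of Apol10b 13th and that of Apol11b 35th. Since these values chose the members, nothing is read from their ranks or counts. The median difference of the 6 probes was 0.87, against 0.07 over all tested probes. No member lay near that median, with Apol9b next below it at 0.09 and Apol11b next above it at 1.64. It is therefore not read as a shift of the family. Probes with every old array above every young one made up 22.5% of those tested, and 3 of the 6 Apol probes were among them.

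These calls rest on few arrays. Leaving out any 1 of the 6 samples ended the call of Apol10b, and leaving out any but young replicate 2 ended that of Apol10a, while over all probes the number passing then fell to between 0 and 1332, against 2441 with all samples. With another background correction, normexp with an offset of 50, Apol10a was 2.27-fold and Apol10b 1.95-fold higher in old samples. Both passed there (limma adjusted p = 0.00187 and 0.00327), with smaller folds. Both calls ended with no filter on dim probes (limma adjusted p = 0.0619 each) and with a replicate block (0.0996 and 0.11). Since the same difference chose the members, nothing is read from these passes.

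**Figure D3:**
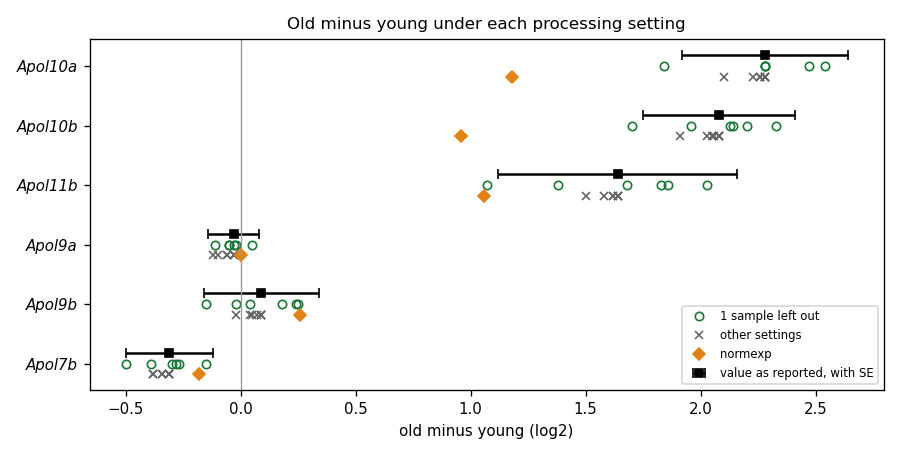
Old minus young difference (log2) of the 6 measured Apol probes, with the value as reported and its SE, the values with 1 sample left out, the values with normexp and the values under the other settings. Apol10a, Apol10b and Apol11b stay above 0 throughout, at 1.18, 0.96 and 1.06 with normexp, while Apol9a and Apol9b fall on both sides of 0 and Apol7b stays below it.

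Young replicate 2 also bears on the precision of the young means. The scanner software's own error estimate for the 6 measured probes was 10.1% to 21.2% of the signal. The highest estimates were 21.2% for Apol10a and 21.1% for Apol10b, both on the array of young replicate 2, and Apol11b had 13.7% there. The lowest signal well above background on that array was 13.3, against 14.7 for Apol10a and 16.1 for Apol10b. Without young replicate 2 the log2 differences were 1.84 for Apol10a, 1.7 for Apol10b and 1.07 for Apol11b.

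Some members also varied together inside an age. After each age's mean was taken out, Apol10b and Apol11b correlated at r = 0.98 over the 6 arrays, Apol10a and Apol10b at 0.95 and Apol10a and Apol11b at 0.90. Apol9b followed them at 0.82 with Apol10a, 0.81 with Apol10b and 0.86 with Apol11b, although its level did not separate the ages. Apol7b did not follow them (0.00, 0.04 and 0.06). Apol9a correlated at 0.72 with Apol10a, 0.59 with Apol10b, 0.52 with Apol11b and 0.63 with Apol9b, and at -0.64 with Apol7b. The old samples of Apol10a were nearly equal (SD 0.01), so its correlations rest on the young samples. Young replicate 2 was the lowest young sample of all of these genes but Apol7b, and it was near the background limit for Apol10a and Apol10b. All 6 probes were read on the same arrays, so these values describe the 6 arrays.

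The Apol9a probe, taken by rule as the measured member with the highest mean signal, was compared over the 6 arrays with 13529 other genes. Its pattern was not that of Apol10a, Apol10b and Apol11b, so likeness to it is not likeness to the family. The genes closest to Apol9a were Wdr5b, a WD-repeat protein (r = 0.984), and Pde1c, a cyclic nucleotide phosphodiesterase (0.983). Lgi3, a secreted leucine-rich repeat protein (0.974), Sh3bp5l (0.970) and Rnf165, a RING-type ubiquitin ligase (0.969), followed. With 6 arrays and so many genes, such values describe these arrays only.

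In the order of the RefSeq gene table of GRCm38.p6, Apol9a and Apol7b come just before Apol10a, Apol7c lies between Apol10a and Apol10b, and Apol11b follows Apol10b with Apol9b further on. The 3 genes with every old value above every young one, of which Apol11b did not pass in limma, thus stood between members that overlapped between the ages. This order has gaps, since Apol7c was not measurable and Apol7e matched no probe. Rbfox2, a splicing factor gene that lies between Apol6 and the other members, differed by 0.05 ± 0.18 (SE). Apol7a, a family gene that is not a member here, had 2 probes, and neither was well above background on any array.

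Outside the cluster, 12 of the 20 genes that flank it, 10 on either side, had a probe and 10 were tested. By the brightest probe of each gene 1 was higher in old, 0 were lower and 9 did not pass in limma, with a median difference of 0.12. At an unadjusted p under 0.05 there were 3 higher and 1 lower. For single genes with a symbol the shares over the array were 2.8% higher and 5.26% lower of 13548 tested, with a median of 0.03. At an unadjusted p under 0.05 those shares were 13.3% higher and 13.6% lower. The flanking gene that rose was Pvalb, which encodes the calcium-binding protein parvalbumin. It averaged 0.90 ± 0.10 in old and 0.11 ± 0.13 in young samples (SD, n = 3 each), a log2 difference of 0.79 ± 0.11 (SE; limma adjusted p = 0.0244). Commd5 (0.27 ± 0.08), the oxidoreductase gene Foxred2 (-0.50 ± 0.15) and the mitochondrial thioredoxin gene Txn2 (0.20 ± 0.08) did not pass, with limma adjusted p-values of 0.096, 0.104 and 0.174.

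Because interferons raise Apol9a and Apol9b, other interferon-stimulated genes were set beside the family. Of 40 such genes 37 had a probe and 36 were tested, of which 0 were higher in old samples, 3 were lower and 33 did not pass in limma. At an unadjusted p under 0.05 the numbers were 0 higher and 10 lower, against 13.3% and 13.6% of all genes. With adjustment the shares of all genes were 2.8% and 5.26%. Among the lower ones was a gene above background on no old array and tested only through the young ones. Leaving out old replicate 1 gave 2 passing genes, and leaving out any other sample, or using no filter on dim probes, gave 0. Their median difference was -0.22, and 9 of the 36 differences were above 0. The genes that fell were Ifi27l2a, Ifit3 and Oas2. Ifi27l2a, which encodes a small hydrophobic membrane protein, averaged 0.87 ± 0.38 in old and 3.13 ± 0.58 in young samples (SD, n = 3 each), and it fell by 2.26 on the log2 scale with an SE of 0.33 (limma adjusted p = 0.0266). Oas2, which makes the activator of RNase L, averaged -0.87 ± 0.48 in old and 0.68 ± 0.37 in young samples, a difference of -1.55 ± 0.29 (SE; limma adjusted p = 0.0361).

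Ifit3, a partner of Ifit1 in binding foreign RNA, had a difference of -2.0 ± 0.37 (SE; limma adjusted p = 0.0348) and was above background on only 1 of the 3 old arrays. The antiviral genes Trim30a (-0.45 ± 0.11), Ifit1 (-0.56 ± 0.31) and Isg15 (-0.03 ± 0.28), and Irf7, the transcription factor of the interferon response (-0.34 ± 0.14), did not pass, with limma adjusted p-values from 0.0634 to 0.95. Mx1 had no matched probe.

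Of 17 genes of interferon signalling (interferons, receptors, kinases and transcription factors) 15 were tested, and 0 were higher, 1 was lower and 14 did not pass in limma, with a median of -0.21. At an unadjusted p under 0.05 there were 1 higher and 5 lower. The shares over all genes were 2.8% higher and 5.26% lower adjusted, and 13.3% and 13.6% unadjusted. Ifng was among the lower ones and was tested only through the young arrays. The gene that passed as lower was Ifngr2, a chain of the interferon gamma receptor, with a log2 difference of -0.44 ± 0.09 (SE; limma adjusted p = 0.0418). Ifng itself was not well above background on any old array, and it did not pass (limma adjusted p = 0.0561). A bound without an error estimate put its mean at least 1.43-fold lower there. This bound sets the mean of the young arrays against the lowest signal well above background on each old array, or the probe's own signal where that was higher. The feedback inhibitor Socs1 (-0.70 ± 0.17) and the receptor kinase Tyk2 (-0.53 ± 0.16) did not pass either (limma adjusted p = 0.0653 and 0.0977).

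Other apolipoprotein genes, most of them for proteins of plasma lipoproteins, and the receptor gene Apobr were set beside the family as well. Of 19 such genes 11 were tested, with 0 higher, 1 lower and 10 not passing in limma, and a median of 0.03. At an unadjusted p under 0.05 there were 0 higher and 2 lower. Over all genes 2.8% were higher and 5.26% lower adjusted, and 13.3% and 13.6% unadjusted. Apobr, the receptor for apolipoprotein B48 on macrophages, averaged -1.61 ± 0.49 in old and 0.42 ± 0.60 in young samples (SD, n = 3 each), a difference of -2.03 ± 0.37 (SE; limma adjusted p = 0.0337). Apoc1 (-0.50 ± 0.18), Apom (0.27 ± 0.12) and Apoa5 (0.32 ± 0.15) did not pass, with limma adjusted p-values from 0.149 to 0.223. For a further 7 of the genes no array gave a signal well above background.

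**Figure D4:**
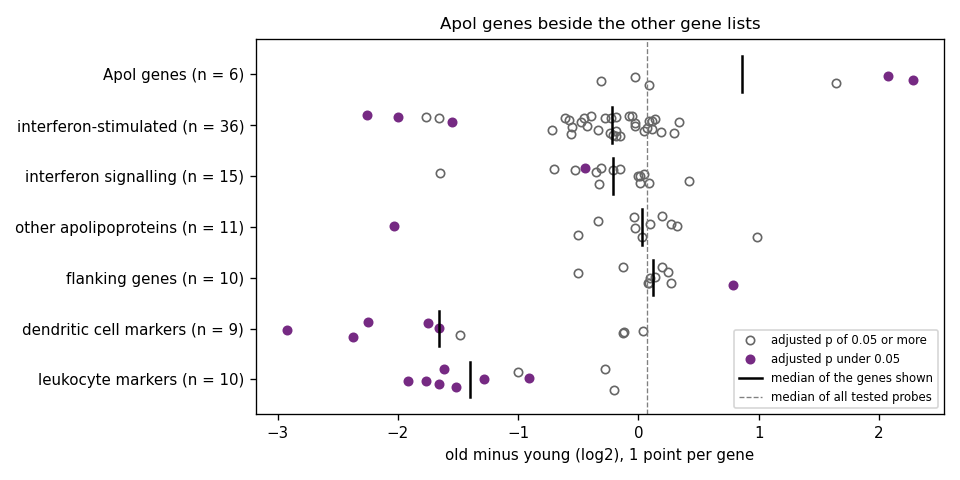
Old minus young difference (log2) of each tested gene, 1 point per gene, in the Apol genes and 6 gene lists, with filled points for an adjusted p under 0.05, a bar at each list's median and a dashed line at the median of all tested probes (0.07). The Apol median is 0.87, that of the interferon-stimulated genes is -0.22 and that of the dendritic cell markers is -1.66, or -1.32 with the genes below background in old samples at their bound. The Apol genes were chosen by these differences, and none lies near their median (next below 0.09, next above 1.64).

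Markers of other cell types differed between the ages beside these values. Over all genes with a symbol, 2.8% passed as higher in old samples and 5.26% as lower. Of 10 leukocyte markers tested 7 were lower in old samples and 0 higher, with a mean level over the list of 1.39 to 1.71 in old and 2.47 to 3.26 in young samples, and Ptprc, which encodes the leukocyte surface protein CD45, differed by -1.28 ± 0.25 (SE; limma adjusted p = 0.0374). Of 9 dendritic cell markers 5 were lower and 0 higher, 2 of the 5 being above background on no old array and tested only through the young ones, with mean levels of -1.69 to -1.28 in old and -0.26 to 0.33 in young samples. Flt3, the growth factor receptor of dendritic precursors, differed by -1.75 ± 0.17 (SE; limma adjusted p = 0.0196). Clec9a was above background on no old array (limma adjusted p = 0.0192). A bound made as for Ifng, again without an error estimate, put its mean at least 1.25-fold lower. Xcr1 was above background on no array. Of 9 B cell markers 6 were lower (mean level -1.66 to -0.44 in old, 0.86 to 1.64 in young), as were 7 of 9 monocyte and macrophage markers, 1 of them above background on no old array (-2.16 to -1.78 in old, -0.47 to 0.48 in young) and 2 of 9 neutrophil markers (5.31 to 5.78 in old, 6.14 to 7.1 in young). Of 9 erythroid markers 0 passed in limma, and 0 had an unadjusted p under 0.05, with levels of 5.02 to 5.2 in old and 4.98 to 5.23 in young samples. T and NK cell markers were higher in 2 and lower in 2 of 9, 1 of the lower ones on no old array, and endothelial markers were higher in 1 and lower in 0 of 6. Their part in the Apol differences was not tested. In bulk RNA, fewer cells of a type and less RNA per cell cannot be told apart.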

How the data were processed

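Total RNA of 6 sorted bone marrow samples was extracted with Trizol and measured on 1-colour Agilent arrays, per the labels. The scanner files hold each spot's intensity as the authors deposited it. Per the file headers the software was Agilent Feature Extraction 10.7.3.1 with a probe design on mm9; version 10.5.1.1 is named in the submitters' processing notes. A second deposited table holds the authors' log2 values for part of the probes. The sources used here do not give how it was scaled, and it served as an alternative.

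Control spots and outlier spots were left out and repeated spots averaged. The log2 processed intensity minus each array's 75th percentile was compared between old and young with limma 3.58.1 (R 4.3.3; lmFit and eBayes, no covariates) over the 31286 of 55681 probes well above background on at least 3 of 6 arrays. P-values were adjusted over all of them by the Benjamini-Hochberg method, with a threshold of 0.05. Tables were made in Python 3.11.15 with pandas 2.3.3. Groups came from the sample titles. Gene symbols came by accession from a RefSeq gene table, which named 26413 probes (47.4%). Each listed gene was represented by its brightest probe. Promoter windows came from RefSeq (GRCm38.p6) and were aligned with Biopython 1.88. The fit was tested on simulated data. A planned comparison of the proteins was not run.

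Named genes were all members, the 5 genes most correlated with Apol9a, the 4 genes with the smallest p of each of the interferon, apolipoprotein and flanking lists, and Ifit1, Isg15, Oas2, Mx1, Irf7, Flt3, Clec9a, Xcr1, Ptprc, Pdgfra and Pdgfrb. A further gene of this rule is not reported here. Rbfox2 and Apol7a were added after their values were seen. The members and lists were chosen with earlier results of these data known. Alternatives were other scalings, normexp background correction on the median signal, the deposited table, other filters on dim probes, a replicate block and leaving out each sample.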

Additional observations from a re-analysis of the deposited data

How the results depend on the processing

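Over all probes 2441 passed, 51.7% of them higher in old samples. The number was 2068 with quantile scaling (47.1% higher), 1994 with cyclic loess (43.5%), 4131 with normexp (67.5%) and 1869 with the deposited table (40.4%). It was 2781 (62.4%) when probes had to be well above background on all 6 arrays. Without a filter on dim probes 0 passed limma (17896 at an unadjusted p under 0.05), and with a replicate block 0 passed (7240 unadjusted). Leaving out 1 sample gave 0 to 1332: 1332 without old replicate 1, 0 without old replicate 2 (6690 unadjusted) or 3 (6503), and 21, 60 and 257 without young replicates 1, 2 and 3. The number of Apol probes that passed, 2, was 0 with no filter and with the replicate block, 3 with normexp and 0 to 1 with 1 sample left out. The 3 interferon-stimulated genes that passed became 0 with no filter and with the replicate block, and 0 to 2 with 1 sample left out. They became 4 with normexp, and 4 when probes had to be well above background on all 6 arrays. Same-numbered old and young samples correlated at -0.008 to 0.009 after group means were taken out, and differently numbered ones at -0.097 to 0.087. With 3 samples of each age these values cannot tell whether the numbers pair the samples.

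With 1 sample left out the log2 difference was 1.84 to 2.54 for Apol10a, 1.7 to 2.33 for Apol10b, 1.07 to 2.03 for Apol11b, -0.11 to 0.05 for Apol9a, -0.15 to 0.25 for Apol9b and -0.50 to -0.15 for Apol7b. With normexp Apol10a was 1.18 and Apol10b 0.96, and the median of all probes was 0.11, against 0.07. Apol10a passed in 8 of the 15 alternatives, Apol10b in 7 and Apol11b in 1, normexp. Apol6 and Apol7c are limited by dim probes, and Apol7e and Apol8 matched none.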
